A study of Mus musculus with 8 samples.

Results

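Pancreatic lipases and zymogen granule proteins were read in RNA of the whole pancreas from 3-week-old mice. The genes were Pnlip, Pnliprp1, Pnliprp2, Cel, Clps, Pla2g1b, Amy1, Sycn and Cuzd1, and a probe set was taken as a member where the platform annotation gave exactly 1 of these symbols. This gave 8 probe sets for 8 of the 9 genes, among 12422 probe sets tested and 8251 genes with a probe set of a single symbol. Pnlip, the classical triglyceride lipase, had no probe set under its symbol and was not analysed here. There were 8 expression arrays, 2 for each of 4 groups, and all groups share the NOD background, an inbred strain that develops autoimmune diabetes. BDC2.5/NOD.scid carries the BDC2.5 transgene, which encodes the antigen receptor of a CD4 T cell clone that can cause diabetes, together with the scid mutation, which blocks the assembly of other lymphocyte receptors. BDC2.5/NOD carries the transgene alone, NOD.scid carries scid alone, and NOD carries neither. The labels give no control strain outside NOD, and no sex. They state that 2 isolations, each from 6 animals, were pooled, so each array reads a pool. The sources used here do not say whether the arrays of a group stem from the same pool. The p-values thus cover the array-to-array spread alone, and that spread may be technical. Pearson's r between the 2 arrays of a group was 0.991 to 0.996, and the BDC2.5/NOD pair was the closest. Whether those arrays were prepared apart is not known, and any such difference and the group cannot be told apart.

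Acinar cells make up most of the exocrine pancreas and pack digestive enzymes into zymogen granules, which release their content into the duct when the cell is stimulated. Fat digestion needs several of these proteins at once. Pnlip cleaves triglycerides and needs colipase (Clps) to stay on a lipid surface coated with bile salts, while Cel works in the presence of bile salts and also cleaves cholesterol esters. Pnliprp2 and Cel serve fat digestion in suckling animals, and Pnlip takes over around weaning. Pla2g1b is a phospholipase released as a proenzyme. Sycn (syncollin) and Cuzd1 lie at the granule membrane and take part in granule formation or release.

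Pla2g1b, Sycn and Amy1 were highest in BDC2.5/NOD. Pnliprp2 and Cuzd1 were lowest in NOD.scid, with the other groups closer together. Cel and Clps differed by no more than 0.16 on the log2 scale between any group means, and both lay near the array maximum. Pnliprp1 was lowest in BDC2.5/NOD, where Pla2g1b was highest. All values are log2 values of the deposited table, levels are not compared between genes because probes differ in brightness, and each log2 fold change is the difference of 2 group means, given with its standard error (SE).

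**Figure D1:**
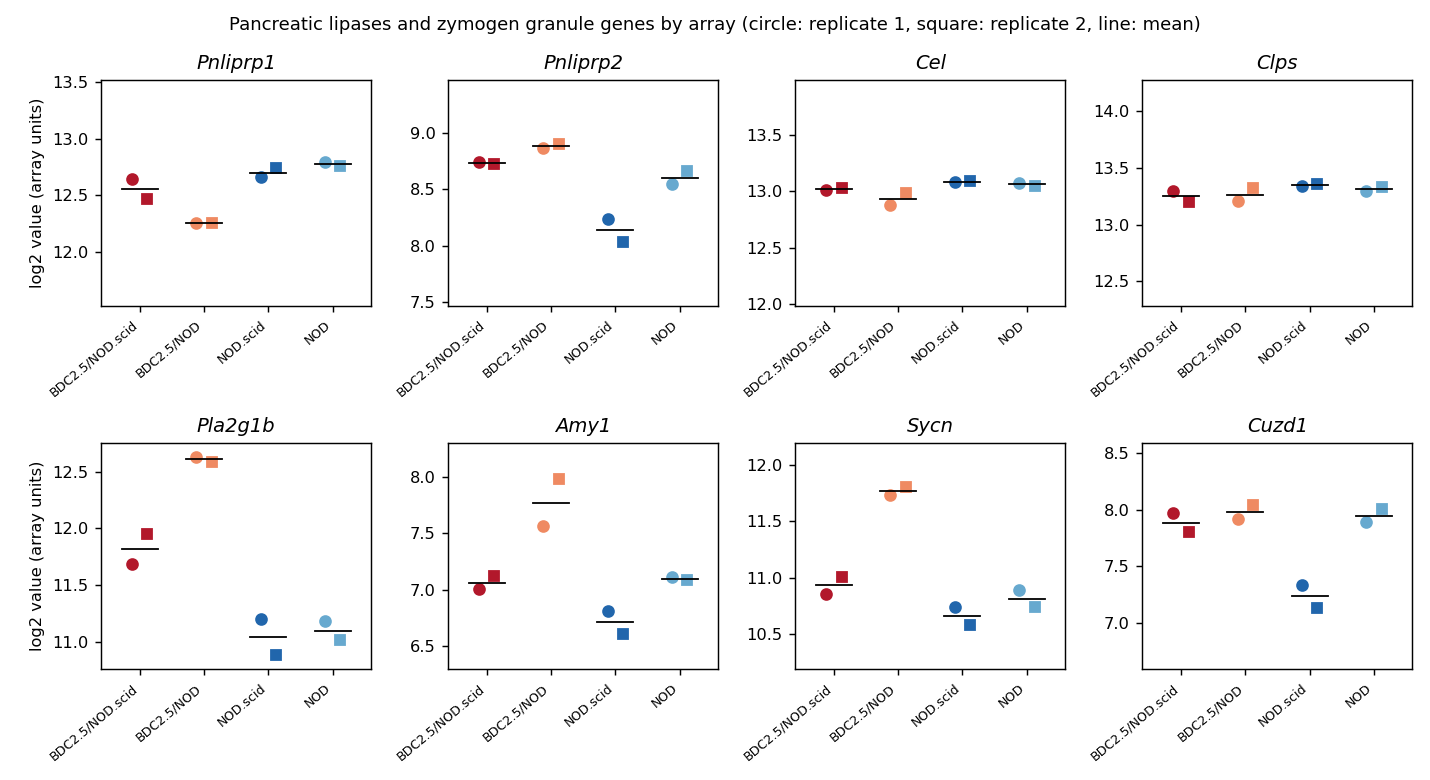
Log2 value of each gene on each array, with the 4 groups on the horizontal axis, circles for replicate 1, squares for replicate 2 and a line at the mean of the 2 arrays; every panel spans the same height. Pla2g1b and Sycn stand out in BDC2.5/NOD at 12.61 and 11.77, Cuzd1 is low in NOD.scid at 7.24, and Clps stays between 13.2 and 13.36 on all arrays.

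Pla2g1b read 11.69 and 11.95 in BDC2.5/NOD.scid, 12.63 and 12.59 in BDC2.5/NOD, 11.20 and 10.88 in NOD.scid, and 11.18 and 11.01 in NOD. Both transgenic groups lay above both groups without the transgene, BDC2.5/NOD lay above BDC2.5/NOD.scid, and NOD.scid and NOD overlapped. Pla2g1b rose with the transgene by 1.52 (SE 0.115, 2.86-fold) in NOD, at 12.61 ± 0.03 (SD, n = 2) in BDC2.5/NOD and 11.10 ± 0.12 in NOD (limma adjusted p = 7.96e-06). In NOD.scid it rose by 0.78 (SE 0.115, 1.72-fold), at 11.82 ± 0.18 in BDC2.5/NOD.scid and 11.04 ± 0.23 in NOD.scid (limma adjusted p = 0.00124). Of the transgenic groups BDC2.5/NOD.scid was the lower, with a log2 fold change of -0.79 against BDC2.5/NOD (limma adjusted p = 0.00104). Its probe set carries the suffix _i_at, which marks a set with fewer unique probes than the array's design asks for.

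Sycn read 10.86 and 11.01 in BDC2.5/NOD.scid, 11.73 and 11.80 in BDC2.5/NOD, 10.74 and 10.58 in NOD.scid, and 10.89 and 10.74 in NOD. Only the BDC2.5/NOD arrays stood clear of all others, while the arrays of the other 3 groups lay between 10.58 and 11.01. With the transgene in NOD, Sycn rose by 0.95 (SE 0.0908, 1.93-fold, limma adjusted p = 5.36e-05). In NOD.scid the log2 fold change was 0.28 (SE 0.0908), with both transgenic arrays above both NOD.scid arrays, and it did not pass (limma adjusted p = 0.111). BDC2.5/NOD.scid was lower for Sycn against BDC2.5/NOD, with a log2 fold change of -0.83 (limma adjusted p = 0.000122).

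Amy1 read 7.01 and 7.12 in BDC2.5/NOD.scid, 7.56 and 7.98 in BDC2.5/NOD, 6.81 and 6.61 in NOD.scid, and 7.11 and 7.08 in NOD. BDC2.5/NOD was highest and had the widest gap between its arrays, and BDC2.5/NOD.scid overlapped NOD. Amy1, an amylase gene best known from salivary gland and liver, rose by 0.67 (SE 0.126) with the transgene in NOD (limma adjusted p = 0.00613). In BDC2.5/NOD.scid it was lower, at -0.71 against BDC2.5/NOD (limma adjusted p = 0.00442). Both calls were lost without BDC2.5/NOD replicate 2, at 0.46 (adjusted p = 0.092, over a range of 8.65e-05 to 0.092 for all alternatives) and -0.50 (adjusted p = 0.0731, over a range of 0.000279 to 0.0731). With the transgene in NOD.scid Amy1 was at 0.35 (limma adjusted p = 0.151) and did not pass. The probe sets annotated to several genes of pancreatic amylase, Amy2, were looked up after the Amy1 values were seen. They averaged 12.24 and 12.58 over the 8 arrays, and neither passed in any comparison. How far the Amy1 probes also bind these related transcripts was not tested.

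Cuzd1 read 7.97 and 7.81 in BDC2.5/NOD.scid, 7.92 and 8.04 in BDC2.5/NOD, 7.34 and 7.13 in NOD.scid, and 7.89 and 8.003 in NOD. NOD.scid lay below every array of the other groups, and those 3 groups overlapped. Cuzd1 rose by 0.65 (SE 0.101, 1.57-fold) with the transgene in NOD.scid (limma adjusted p = 0.0017), while in NOD it was at 0.04 (95% confidence interval -0.18 to 0.25). Without the transgene it was lower in NOD.scid than in NOD, at -0.71 (SE 0.101, limma adjusted p = 0.003). That call was lost by a narrow margin without NOD replicate 2, at -0.65 (adjusted p = 0.0507). It was also lost when arrays were centred on acinar proteases, at -0.63 (adjusted p = 0.068, over a range of 0.000124 to 0.068 for all alternatives). The suffix _f_at of its probe set marks probes that may match several members of a sequence family.

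Pnliprp2 read 8.74 and 8.73 in BDC2.5/NOD.scid, 8.86 and 8.90 in BDC2.5/NOD, 8.24 and 8.04 in NOD.scid, and 8.55 and 8.66 in NOD. NOD.scid was again lowest, and here the transgenic groups also lay above NOD. It rose by 0.60 (SE 0.0905, 1.51-fold) with the transgene in NOD.scid (limma adjusted p = 0.00149). In NOD the log2 fold change of 0.28 (SE 0.0905) did not pass (limma adjusted p = 0.0836). NOD.scid without the transgene was lower than NOD, at -0.47 (limma adjusted p = 0.0195). That call was lost without NOD.scid replicate 2 (-0.36), NOD replicate 1 (-0.52), NOD replicate 2 (-0.41) or either BDC2.5/NOD array (-0.47 in both fits), with adjusted p from 0.0536 to 0.172. It was also lost at -0.47 when only the groups compared were fitted (adjusted p = 0.0847) and when the BDC2.5/NOD arrays were averaged (adjusted p = 0.0538). Centring on acinar proteases gave -0.39 with an adjusted p of 0.863, the highest of a range that began at 0.00182.

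Pnliprp1 read 12.64 and 12.47 in BDC2.5/NOD.scid, 12.25 and 12.25 in BDC2.5/NOD, 12.66 and 12.74 in NOD.scid, and 12.79 and 12.76 in NOD. The BDC2.5/NOD arrays were lowest, followed by those of BDC2.5/NOD.scid, and no array of a transgenic group reached the level of NOD.scid or NOD. Pnliprp1, a lipase-related protein with little known lipase activity, fell by 0.53 on the log2 scale (SE 0.0793) with the transgene in NOD (limma adjusted p = 0.00159). With quantile normalization the value was -0.80, and with arrays centred on acinar proteases it was -0.30 and did not pass (adjusted p = 0.29, over a range of 1.01e-05 to 0.29 for all alternatives). In NOD.scid it was at -0.15 and did not pass (limma adjusted p = 0.396). It was 0.31 higher in BDC2.5/NOD.scid than in BDC2.5/NOD (limma adjusted p = 0.0337), a call lost when any 1 of 5 arrays was left out, namely BDC2.5/NOD.scid replicate 1 (0.22) and each array of BDC2.5/NOD and NOD (0.31 in each of these). It was 0.52 with quantile normalization. It was also lost at 0.31 without a variance trend (adjusted p = 0.0791), with only the groups compared in the fit (0.0704) or with the BDC2.5/NOD arrays averaged (0.225), and at 0.25 when centred on acinar proteases (0.892, the highest of a range that began at 0.00104). Pnliprp1 lies between Pnlip and Pnliprp2 on chromosome 19 of GRCm38.p6, with no other coding gene in between. These neighbours had log2 fold changes of opposite sign with the transgene in both backgrounds, of which the values in each background that passed were those of Pnliprp1 in NOD and Pnliprp2 in NOD.scid.

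Clps read 13.30 and 13.20 in BDC2.5/NOD.scid, 13.21 and 13.32 in BDC2.5/NOD, 13.34 and 13.36 in NOD.scid, and 13.30 and 13.33 in NOD. Cel read 13.01 and 13.03 in BDC2.5/NOD.scid, 12.88 and 12.98 in BDC2.5/NOD, 13.08 and 13.09 in NOD.scid, and 13.07 and 13.05 in NOD. Neither passed in any comparison. With the transgene in NOD the 95% confidence interval of the log2 difference was -0.21 to 0.11 for Clps and -0.29 to 0.03 for Cel, and in NOD.scid it was -0.26 to 0.06 for Clps and -0.22 to 0.09 for Cel. These intervals apply to the array values, which were close to the array maximum. Clps lay 0.33 to 0.54 below the brightest probe set of its array and Cel 0.61 to 0.83 below it, with at most 3 and 6 probe sets brighter. Pnliprp1 lay 0.9 to 1.53 below the maximum and Pla2g1b 1.08 to 2.89 below it, and Amy1, Cuzd1 and Pnliprp2 at least 4.85 below it. Of the 10 probe sets with the highest mean (12.59 or more), limma called 0 in each of the pairwise comparisons. Clps and Cel are themselves among these 10, so this count is not independent of their own results. At an unadjusted p under 0.05 this was 0 for BDC2.5/NOD.scid against NOD.scid, 2 for BDC2.5/NOD against NOD, 1 for scid with the transgene and 0 for scid without it. Of the 50 brightest it called 19, 22, 13 and 11 in the same order. Whether the scanner or the probes were saturated was not tested, and a difference between groups may be understated near the maximum.

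**Figure D2:**
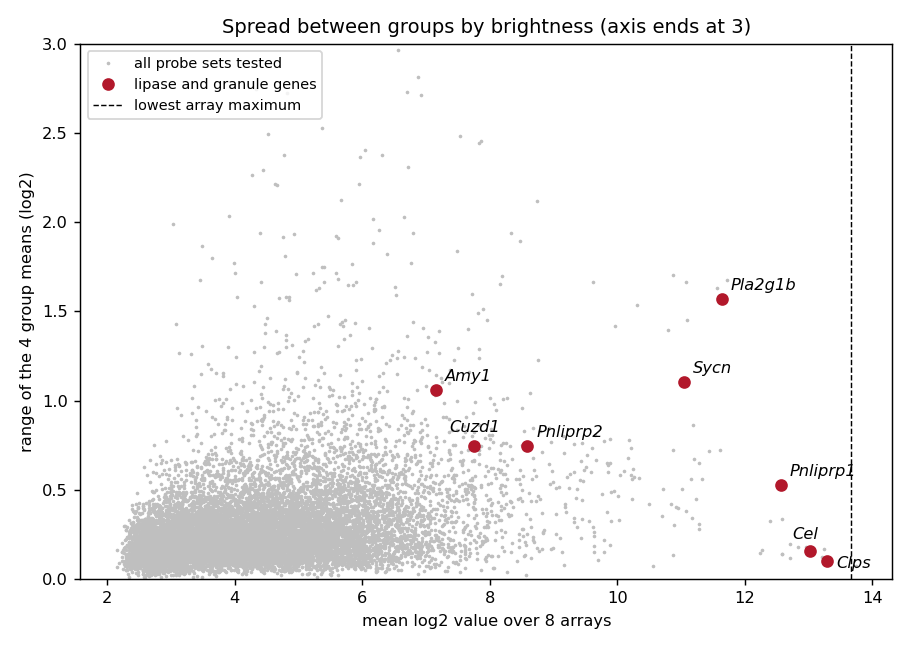
Range of the 4 group means (vertical, log2) against the mean log2 value over 8 arrays (horizontal) for all 12422 probe sets in grey and the 8 members in red, with a dashed line at the lowest array maximum; 14 probe sets with a range over 3 are not drawn. Clps and Cel sit beside the line with ranges of 0.10 and 0.16, while Pla2g1b, at a lower mean, has a range of 1.57.

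The sequence just upstream of the start is shown for the 2 members with the largest rise in BDC2.5/NOD, Pla2g1b and Sycn, and for Cel, whose window held the most matches to the motifs searched. Each is the 250 bases before the RefSeq start in GRCm38.p6, read 5′ to 3′ on the gene's strand. Cel lies at chr2:28563404-28563653 on the minus strand, Pla2g1b at chr5:115465892-115466141 on the plus strand and Sycn at chr7:28540635-28540884 on the plus strand. Capitals mark matches on either strand to CACCTG, the E-box of the acinar factor PTF1A, TGGGAA, the core of the site of its partner RBPJ, TTCNNNGAA, the site of STAT factors, and TGACGTG, a site of the unfolded protein response. No match overlaps another.
Pla2g1b: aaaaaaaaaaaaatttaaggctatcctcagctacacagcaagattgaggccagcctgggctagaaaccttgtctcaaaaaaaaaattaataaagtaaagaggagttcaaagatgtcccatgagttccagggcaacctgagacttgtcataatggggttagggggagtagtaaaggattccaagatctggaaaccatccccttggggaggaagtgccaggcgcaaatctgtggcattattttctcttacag
Sycn: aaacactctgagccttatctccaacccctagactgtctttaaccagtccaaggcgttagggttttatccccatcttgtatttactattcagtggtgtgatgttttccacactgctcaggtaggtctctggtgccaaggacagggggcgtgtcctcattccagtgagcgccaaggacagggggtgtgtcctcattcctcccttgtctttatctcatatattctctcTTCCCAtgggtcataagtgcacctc
Cel: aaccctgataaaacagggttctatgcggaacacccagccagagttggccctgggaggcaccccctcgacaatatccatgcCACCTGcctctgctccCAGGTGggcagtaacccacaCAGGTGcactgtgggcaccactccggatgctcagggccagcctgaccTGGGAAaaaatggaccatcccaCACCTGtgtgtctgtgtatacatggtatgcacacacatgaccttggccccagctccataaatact
Cel held 4 matches to CACCTG and 1 to TGGGAA, Sycn held 1 to TGGGAA, and Pla2g1b held none of the 4 motifs. Amy1, which also rose in BDC2.5/NOD, has 2 windows, of which 1 held a match to TGGGAA and the other held none of the motifs. Pnliprp1 and Pnlip each held 1 match to TGGGAA, Pnliprp2 held 1 to CACCTG and Cuzd1 held none. Among all 32851 upstream windows of this length, 17.2% held CACCTG, 21.6% TGGGAA, 7.02% TTCNNNGAA and 1.65% TGACGTG. A match is a description of letters and not a bound site.

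With the transgene in NOD.scid, 3 of the 8 members rose (Pla2g1b, Cuzd1 and Pnliprp2) and 0 fell, against 2.37% of all probe sets called higher, 4.03% called lower and 6.4% called in either direction. At an unadjusted p under 0.05 there were 5 members in that comparison, against 17.4% of all probe sets and 39.9% of the 1000 brightest. The unadjusted count was 5 for the transgene in NOD (23.6% of all and 45.1% of the 1000 brightest). It was 4 for scid with the transgene (20.8% and 42.5%) and 3 for scid without it (14.2% and 28.2%). With the transgene in NOD, 3 rose (Pla2g1b, Sycn and Amy1) and 1 fell (Pnliprp1), against 3.91% of all probe sets called higher and 4.06% called lower, or 7.97% in all. Comparing BDC2.5/NOD.scid with BDC2.5/NOD, Pnliprp1 was higher and Pla2g1b, Sycn and Amy1 were lower, against 2.99% of all probe sets higher and 5.35% lower, or 8.35% in all. Comparing NOD.scid with NOD, Pnliprp2 and Cuzd1 were lower, against 0.741% higher and 1.61% lower, or 2.35% in all. Arrays of the groups compared did not overlap for 8 members in BDC2.5/NOD.scid against NOD.scid (42.7% of all probe sets), 6 in BDC2.5/NOD against NOD (56.2%), 6 for scid with the transgene (51.8%) and 6 for scid without it (42.3%). These comparisons share groups, so that the same BDC2.5/NOD arrays enter 2 of them. Calls were more frequent among bright probe sets, and all members lie among the 1000 brightest. Of the 100 brightest probe sets, 35 were called for BDC2.5/NOD.scid against NOD.scid, 45 for BDC2.5/NOD against NOD, 33 for scid with the transgene and 20 for scid without it. The 5 members among these 100 (Pla2g1b, Sycn, Pnliprp1, Cel and Clps) gave 1, 3, 3 and 0 calls in the same order. Among the 1000 brightest the shares called were 23.7%, 23.6%, 23.4% and 9.3%, and the other 3 members (Pnliprp2, Cuzd1 and Amy1) gave 2, 1, 1 and 2 calls. The median log2 fold change of the 8 members was 0.31 with the transgene in NOD.scid and 0.16 in NOD, beside -0.0045 and 0.03 over all probe sets.

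**Figure D3:**
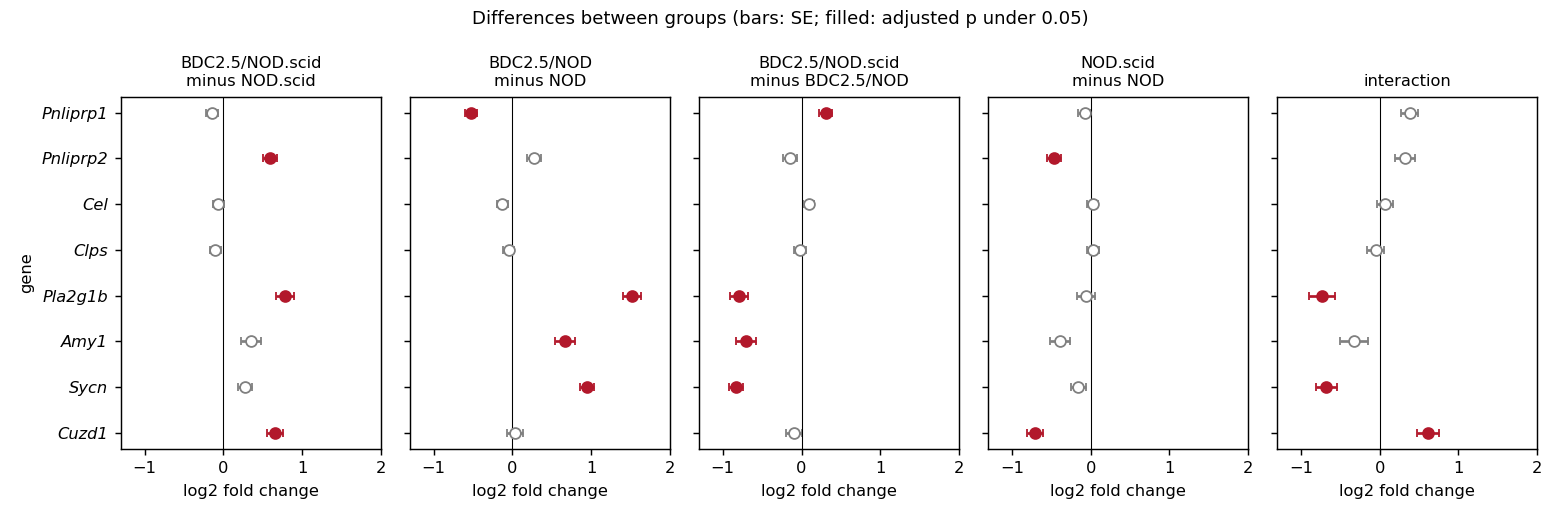
Log2 fold change of each gene (horizontal, bars show the SE) in the 4 pairwise comparisons and the interaction, with filled red points for an adjusted p under 0.05. Pla2g1b is at 0.78 with the transgene in NOD.scid and 1.52 in NOD, and Cel and Clps lie near 0 in all panels.

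The transgene was then compared between the backgrounds as an interaction, the log2 fold change in NOD.scid minus that in NOD, for which 4.72% of all probe sets were called, 2.22% higher and 2.5% lower. Of the members, 3 passed. Sycn was at -0.68 (SE 0.128, limma adjusted p = 0.0104) and Pla2g1b at -0.74 (SE 0.163, limma adjusted p = 0.0235), so that both differed more between BDC2.5/NOD and NOD. Cuzd1 was at 0.62 (SE 0.143, limma adjusted p = 0.0289), in the other direction, with NOD.scid its lowest group. The interaction of Pnliprp1, at 0.38, did not pass (limma adjusted p = 0.0848), nor did that of Amy1, at -0.32 (95% confidence interval -0.71 to 0.07). None of the 3 calls held in all fits that left out an array. Pla2g1b lost its call without any 1 of BDC2.5/NOD.scid replicate 1, NOD.scid replicate 1, NOD replicate 2 or either BDC2.5/NOD array (-0.76 to -0.58). Sycn was lost without NOD replicate 2 or either BDC2.5/NOD array (-0.71 to -0.60). Cuzd1 was lost without 6 of the 8 arrays in turn, all but BDC2.5/NOD.scid replicate 2 and NOD.scid replicate 1 (0.51 to 0.68). With the BDC2.5/NOD arrays averaged none of the 3 passed, and centred on acinar proteases Sycn (-0.81, adjusted p = 0.0778) and Cuzd1 (0.48, adjusted p = 0.611) did not.

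**Figure D4:**
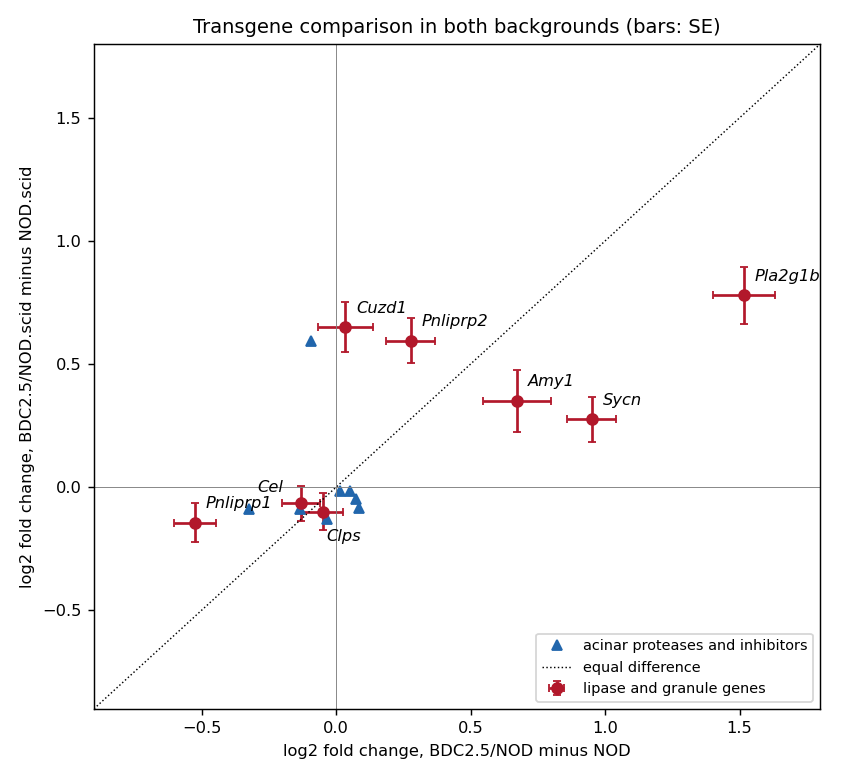
Log2 fold change with the transgene in NOD.scid (vertical) against that in NOD (horizontal), with bars for the SE of the 8 members in red, triangles for 8 genes of acinar proteases and inhibitors, and a dotted line where both are equal. Pla2g1b and Sycn lie right of the line, Cuzd1 left of it, and all triangles but Klk1 lie near 0 on the vertical axis.

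Other acinar genes were read from lists chosen with earlier results of these data known. Of 19 acinar proteases and inhibitors 8 were measured, among them Ctrb1 (chymotrypsinogen) at 13.70 to 13.77 and Cela1 (elastase) at 13.17 to 13.34 in group means, both defining genes of acinar cells. The array maxima were 13.66 to 13.78, so Ctrb1 lay at the maximum and Cela1 near it. A difference between groups may be understated there, as for Clps and Cel. Spink1, a trypsin inhibitor, was dim in the 4 groups (3.39 to 3.59). Klk1, a tissue kallikrein read from a probe set with the suffix _f_at like that of Cuzd1, was the only one of the 8 that passed. It rose by 0.60 with the transgene in NOD.scid (limma adjusted p = 0.000425) and was lower in NOD.scid than in NOD, at -0.72 (limma adjusted p = 0.000272). Its group means were 11.55 in BDC2.5/NOD.scid, 11.58 in BDC2.5/NOD, 10.96 in NOD.scid and 11.67 in NOD, so that NOD.scid was lowest as for Cuzd1 and Pnliprp2. The summed linear level of the 8 genes spanned 46780 to 47079 in BDC2.5/NOD.scid, 47011 to 48704 in BDC2.5/NOD, 47665 to 48053 in NOD.scid and 47560 to 48749 in NOD. This sum is made up mostly of the brightest probe sets, so its differences may be understated too. In bulk tissue, fewer cells of a type and less RNA per cell cannot be told apart.

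Of 19 measured genes of the granule membrane and of stimulated secretion, 1 rose and 2 fell with the transgene in NOD.scid, and 4 rose and 2 fell with it in NOD. Dmbt1, a secreted scavenger receptor protein, rose by 1.49 in NOD.scid and by 1.15 in NOD (limma adjusted p = 1.5e-07 and 3.81e-06). Atp2a2, the calcium pump of the endoplasmic reticulum, rose by 0.39 in NOD, and Cckar, the receptor through which cholecystokinin stimulates enzyme release, was at -0.59. Tff2, a trefoil peptide, was at -0.72 with the transgene in NOD.scid. Of the same 19 genes, 4 were lower and 0 higher in BDC2.5/NOD.scid than in BDC2.5/NOD, among them Atp2a2 (-0.66) and Tff2 (-0.515). In NOD.scid against NOD 2 were lower and 0 higher, namely Dmbt1 (-0.485) and Atp2a2 (-0.50). Among 11 transcription factors of acinar cells, Nr5a2 fell by 0.53 on the log2 scale in NOD and Foxa2 fell by 0.66 in NOD.scid, and no other passed in a pairwise comparison. Of 18 other lipases and phospholipases, Pla2g7, the phospholipase that inactivates platelet-activating factor, rose by 1.04 in NOD.scid with the transgene, and Lpl (lipoprotein lipase) fell by 1.08 in NOD. In BDC2.5/NOD.scid, Lypla2 was lower, at -0.36 against BDC2.5/NOD, and Pla2g7 was 1.27 higher.

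Genes with the most similar profile were sought among 1170 probe sets of other genes with a range of group means of at least 0.5. Likeness was Pearson's r over the 8 arrays, given as a description without a test, since all points share the same arrays. For Pla2g1b these were Slc7a8 (r = 0.990), Stat3 (0.985) and Rdh5 (0.977). For Sycn they were Gjb2 (0.986), Creld2 (0.983) and 1810009J06Rik (0.975), and for Amy1 they were Ssr3 (0.964), Hspa5 (0.962) and Hsp90b1 (0.961). Hspa5, the chaperone BiP, had group means of 8.68 in BDC2.5/NOD.scid, 9.99 in BDC2.5/NOD, 7.87 in NOD.scid and 8.46 in NOD. Among the members themselves, r was 0.947 between Pla2g1b and Sycn, 0.946 between Amy1 and Sycn, 0.940 between Pnliprp2 and Cuzd1, and -0.969 between Pnliprp1 and Pla2g1b.

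Markers of other cell types moved with the groups as well, and their part in the members' results was not tested. Of 7 mesenchymal markers, 7 fell with the transgene in NOD and 5 in NOD.scid. Their summed linear level was 825 to 830 in BDC2.5/NOD.scid, 612 to 617 in BDC2.5/NOD, 956 to 1037 in NOD.scid and 1101 to 1126 in NOD. Dcn (-1.45) and Postn (-1.38) fell furthest in NOD, with Lum at -0.84 and Col1a2 at -0.77. Of 8 macrophage markers, 6 rose with the transgene in NOD.scid and 0 in NOD, led by Lyz2 (1.95), Cd14 (1.13), C1qc (1.08) and C1qa (0.71). Their summed level was 675 to 762 in BDC2.5/NOD.scid, 404 to 406 in BDC2.5/NOD, 391 to 428 in NOD.scid and 349 to 392 in NOD. Of 5 beta cell markers, 2 fell in NOD.scid and 3 in NOD (Ins2, Iapp and Slc2a2), with sums of 1219 to 1357 in BDC2.5/NOD.scid, 1835 to 1901 in BDC2.5/NOD, 3276 to 3665 in NOD.scid and 3028 to 3152 in NOD. Of 6 other endocrine markers, 3 fell in NOD.scid (Sst, Gcg and Chgb), and in NOD 2 fell (Sst and Gcg) and 1 rose (Ghrl). Car2 among 8 duct markers was 2.63 higher in NOD.scid than in NOD. With the transgene Car2 was at -2.64 in NOD.scid and -0.47 in NOD, while Cftr rose by 0.45 in NOD. Between the transgenic groups Car2 was 0.46 higher in BDC2.5/NOD.scid. No duct marker but Car2 and Cftr passed in a pairwise comparison. Adipoq among 5 adipocyte markers fell by 1.10 on the log2 scale in NOD with the transgene. It was also lower in NOD.scid than in NOD, at -0.98, so that NOD was its highest group. No other adipocyte marker passed in a pairwise comparison. No marker of T cells (6 measured), B cells (5) or endothelium (6) passed in a pairwise comparison. The deposited log2 values carry no detection calls, so no marker can be said to be at 0.

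The middle beta-actin control read 9.26 to 9.55 on BDC2.5/NOD.scid replicate 2, NOD.scid replicate 1 and NOD replicate 1, and 6.95 to 7.74 on the other 5 arrays, which include both of BDC2.5/NOD. Each group but BDC2.5/NOD thus held 1 array of each level. The differences below set single arrays, or both BDC2.5/NOD arrays, against 1 array and carry no measure of spread. Within the arrays of low actin control, the log2 difference with the transgene in NOD was 1.60 for Pla2g1b, 1.03 for Sycn, 0.69 for Amy1 and -0.51 for Pnliprp1. With the transgene in NOD.scid it was 0.81 at low and 0.75 at high actin control for Pla2g1b, 0.83 and 0.47 for Cuzd1, and 0.71 and 0.49 for Pnliprp2. Comparing NOD.scid with NOD it was -0.87 at low and -0.55 at high actin control for Cuzd1, and -0.63 and -0.31 for Pnliprp2. Comparing BDC2.5/NOD.scid with BDC2.5/NOD, which only the low arrays allow, it was -0.92 for Pla2g1b, -0.91 for Sycn, -0.76 for Amy1 and 0.39 for Pnliprp1.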

How the data were processed

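The deposited table held 1 value for each of 12488 probe sets on 8 arrays. Their scale was taken as log2 because values reached 13.78. How the authors normalized the arrays, corrected background and combined probes is unstated in the labels. Array medians lay between 4.24 and 4.30, and the deposited log2 values were used with no further scaling. The 66 array controls were left out. Symbols came from the platform annotation, and those of the 8 members were unchanged in GRCm38.p6. One model with a mean per group was fitted over the 8 arrays (limma 3.58.1, R 4.3.3) with a variance trend (4 residual degrees of freedom, prior worth 8.07). Moderated two-sided p-values were adjusted (Benjamini-Hochberg) over 12422 probe sets in each of 5 comparisons, with a threshold of 0.05. A listed gene was read from its probe set of highest mean, and up to 4 genes past the threshold with the largest fold change were named per list. The numbers in the titles were not treated as pairs. Members and lists were chosen with earlier results of these data known. Precision is limited by the number of arrays. Upstream sequences are RefSeq's (GRCm38.p6), held for 8 of the 9 genes. pandas 2.3.3 and matplotlib 3.10.9 were used for tables and plots. Alternatives covered scaling, filter, variance prior, arrays in the fit, block, weights, threshold and actin control.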

Additional observations from a re-analysis of the deposited data

Results flagged for a closer look

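The log2 fold change with the transgene differed between NOD.scid and NOD for 3 members by the interaction test. The difference was -0.735 for Pla2g1b and -0.675 for Sycn, and 0.616 for Cuzd1 (limma adjusted p = 0.0235, 0.0104 and 0.0289). For Pla2g1b the transgene gave 0.78 in NOD.scid and 1.52 in NOD, and for Sycn it gave 0.28 and 0.95. For Cuzd1 it gave 0.65 and 0.04. None of these calls held at a threshold of 0.01.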

How the results depend on the processing

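The 16 calls of a member in a comparison kept their direction under every alternative that gave a value. These were 21 for each pairwise call and 20 for each interaction call, since a fit of only the 2 groups compared has no interaction. Of 333 such values, 285 stayed past the threshold and 48 did not, and 7 of the 16 calls were never lost. These were Pla2g1b in its 3 pairwise calls, Sycn in NOD and between the transgenic groups, and Pnliprp2 and Cuzd1 with the transgene in NOD.scid. The count of members called for scid without the transgene, 2 in the report, was 1 when only the groups compared were fitted, 1 at a threshold of 0.01, 1 with the BDC2.5/NOD arrays averaged and 0 when arrays were centred on acinar proteases. The interaction count, 3 in the report, was 0 at a threshold of 0.01, 0 with the BDC2.5/NOD arrays averaged and 1 when centred on acinar proteases. With the actin control as a term, 5 members rose with the transgene in NOD.scid, against 3. Centring used the median of 9 probe sets of acinar proteases on each array. That median lay at or near the value of the protease gene Ctrl, so this alternative rests largely on 1 probe set. Ctrl had group means of 12.33 in BDC2.5/NOD.scid, 12.27 in BDC2.5/NOD, 12.42 in NOD.scid and 12.595 in NOD. Such centring moved the median of all probe sets by 0.23 with the transgene in NOD and by -0.14 in the interaction. It changed the split of all calls with the transgene in NOD to 577 higher and 106 lower, against 486 and 504 with the values as deposited, in NOD.scid to 199 and 105, against 295 and 500, and for scid without the transgene to 39 and 30, against 92 and 200. Centring array medians gave 408 higher and 640 lower with the transgene in NOD. The cause was not tested. Leaving out each array in turn gave counts of 3 to 3 for the transgene in NOD.scid, 3 to 4 for the transgene in NOD, 2 to 4 for scid with the transgene, 0 to 2 for scid without it and 0 to 4 for the interaction. The title number as a replicate block gave 3, 4, 3, 2 and 2 members in the same order. Under this block the lost calls were Pnliprp1 between the transgenic groups (adjusted p = 0.0741) and the interaction of Cuzd1 (adjusted p = 0.061). Same-numbered arrays deviated together at correlations of -0.32 to 0.29 across probe sets, so the numbers were not taken as pairs. The value was 0.29 for NOD.scid with NOD, and BDC2.5/NOD.scid gave -0.19 with NOD.scid and -0.32 with NOD. With the numbers of BDC2.5/NOD.scid swapped, a choice made after seeing the data, the counts were 4, 4, 4, 2 and 4. The swap puts arrays of like actin control together in every group that holds both levels, which BDC2.5/NOD does not. What such arrays share was not tested.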
